A study of Mus musculus with 8 samples.

Results

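The solute carrier (Slc) genes expressed by mouse splenic regulatory T cells (Tregs) are described here in the subsets with and without surface TNFR2, the second receptor for TNF. Members were the genes whose symbol began with Slc, a family number, the letter a and a member number, and whose mean over the 8 libraries was at least 10 normalized counts. This gave 177 members of the 253 matching symbols in the table, among 13990 genes with that mean and 20172 identifiers in all. Because members were selected on their mean level, that level is not a finding. Slc22a2, Slc24a1 and Slc4a11 lay just inside the limit (10.1, 10.1 and 10.2) and Slc7a3, Slc12a3 and Slc40a1 just outside it (9.82, 9.71 and 9.59). The name also caught 5 genes that are not carriers (Slc9a3r1, Slc4a1ap, Slc7a6os, Slc36a1os and Slc2a4rg-ps), which left 172 carriers.

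Both groups came from spleens of female mice carrying the Foxp3 YFP-cre allele, in which a fusion of YFP and Cre is driven from the Foxp3 locus, so that TNFR2+ and TNFR2- Tregs alike carried it. CD4+ YFP+ cells were sorted by surface TNFR2 into 4 libraries for each subset. The study's figure legend gives as many mice as there are libraries in a subset, but neither labels nor methods tie a library to an animal, so p-values measure the spread between these samples, which may be technical. The table gives normalized counts per gene, and n was 4 libraries in each group throughout. The mice were young adults by the methods, which name both males and females for the study as a whole. The age of each mouse is not given in the labels.

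Solute carriers are membrane proteins that move small molecules down or against their gradients, in families named by number. Some sit in the plasma membrane and bring in glucose, amino acids, nucleosides, metals or ions, others serve lysosomes and vesicles, and the Slc25 family lies mostly in the inner mitochondrial membrane. In T cells, activation is known to raise the import of glucose and amino acids, for which Slc2a1 (GLUT1) and the CD98 dimer of Slc3a2 with Slc7a5 are the textbook examples.

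The libraries matched their labels by the sorted receptor, since Tnfrsf1b, which encodes TNFR2, ranged over 1839.8 to 3148 in TNFR2+ and 1177 to 1563 in TNFR2- Tregs, without overlap. Foxp3 ranged over 2812 to 3313 in TNFR2+ and 3292 to 4033 in TNFR2- Tregs, and the summed level of 6 Treg and T cell genes (Foxp3, Il2ra, Ctla4, Ikzf2, Cd4 and Cd3e) was 25684 to 29549 and 19555 to 23702, respectively. Within that sum Ikzf2 (9763 ± 1407 in TNFR2+ and 5275 ± 1806 in TNFR2- Tregs, mean ± SD), Ctla4 and Cd3e were higher in TNFR2+ Tregs, while Il2ra was at 2742 ± 225 in TNFR2+ and 3482 ± 363 in TNFR2- Tregs, without overlap, and did not pass (log2 difference -0.34, limma adjusted p = 0.086). Of the 10 B cell markers, 8 had a value here, and their sum was 413 to 524 in TNFR2+ and 206 to 482 in TNFR2- Tregs. Sums of the 3 myeloid markers with a value (of 10) were 2.92 to 17.9 and 10.6 to 30.4, with Csf1r at 0 in every TNFR2+ and S100a9 at 0 in every TNFR2- library, and the 1 erythroid marker with a value (of 8) reached at most 12.1. Cytotoxic markers (6 of 8 with a value) summed to 111 to 220.3 and 59.6 to 132, and platelet markers (2 of 6) to 116 to 335 and 417 to 650.1. Members of these sums differed. In the B cell sum Cd22 averaged 309 in TNFR2+ and 150 in TNFR2- Tregs, without overlap (limma adjusted p = 0.0612). Cd79b was at 38.7 and 24.7, Ms4a1 at 57.5 and 55.4, and Ebf1 at 39.4 and 53.7, in the same order. Nkg7 averaged 64.3 in TNFR2+ and 7.83 in TNFR2- Tregs (limma adjusted p = 0.00927), and Prf1 6.92 and 23.4 (limma adjusted p = 0.572). The platelet gap came from Itgb3, at 125 and 434 (limma adjusted p = 0.000514), whereas Itga2b was at 117 and 107 (limma adjusted p = 0.924). Of 12 cell cycle genes, 8 were higher in TNFR2+ Tregs and none lower, with Mki67 at 3834 ± 1014 against 577 ± 289 normalized counts (mean ± SD). What these differences contribute to the results below was not tested, and in bulk RNA fewer cells of a type and less RNA per cell cannot be told apart. TNFR2- replicate 3 stood apart from the other libraries on the second principal component (16.7% of the variance), and counts are given with and without it.

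Few solute carriers passed the test between the subsets. At an adjusted p under 0.05 by limma, 12 of the 177 members passed, against 7.91% of all genes tested, which is close to the members' 6.78%. Among them 7 were higher in TNFR2+ Tregs (Slc43a3, Slc22a15, Slc39a4, Slc36a4, Slc26a2, Slc25a4 and Slc3a2) and 5 were lower (Slc17a9, Slc20a1, Slc12a7, Slc38a2 and Slc44a2). The higher calls were 3.95% of members against a background of 4.52%, and the lower calls 2.82% against 3.39%. In all 12 the 4 TNFR2+ libraries lay entirely on one side of the 4 TNFR2- libraries, as did 22 members in all (12.4%) against 15.4% of tested genes. Without adjustment, 41 members had a limma p under 0.05 (23.2%), against 23.0% of all genes tested. Without limma's intensity trend Slc43a3, Slc39a4, Slc17a9 and Slc20a1 still passed, and the other 8 of the 12 lost their calls (limma adjusted p between 0.0555 for Slc36a4 and 0.136 for Slc3a2). The exact permutation test over all 70 relabellings gave each of the 12 a two-sided p of 0.0286. This is the smallest it can give, and groups without overlap fix it in advance. Slc1a5 and Slc25a3, which did not overlap and did not pass, got the same value. The lowest mean among the 12 was 84.9 normalized counts, and in none did the mean of either subset fall under 10, whereas 10 other members passed the limit through 1 subset alone.

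The median log2 fold change over members was 0.05, against -0.01 over all genes tested, with 96 members above 0 and 81 below. Of the 165 that did not pass, 64 had a 95% interval lying within 1 log2 unit of 0 on either side, and for the other 101 the interval reached a 2-fold difference. Members together took 0.577% to 0.663% of the normalized counts in TNFR2+ libraries and 0.510% to 0.599% in TNFR2- libraries, ranges that overlap. Without TNFR2- replicate 3, 21 members passed (16 higher and 5 lower) and the share of all genes passing was 9.30%. Scaling every library to the same total moved the median of all genes to 0.12 and the calls to 13 higher and 4 lower, with 8.68% of all genes passing.

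**Figure D1:**
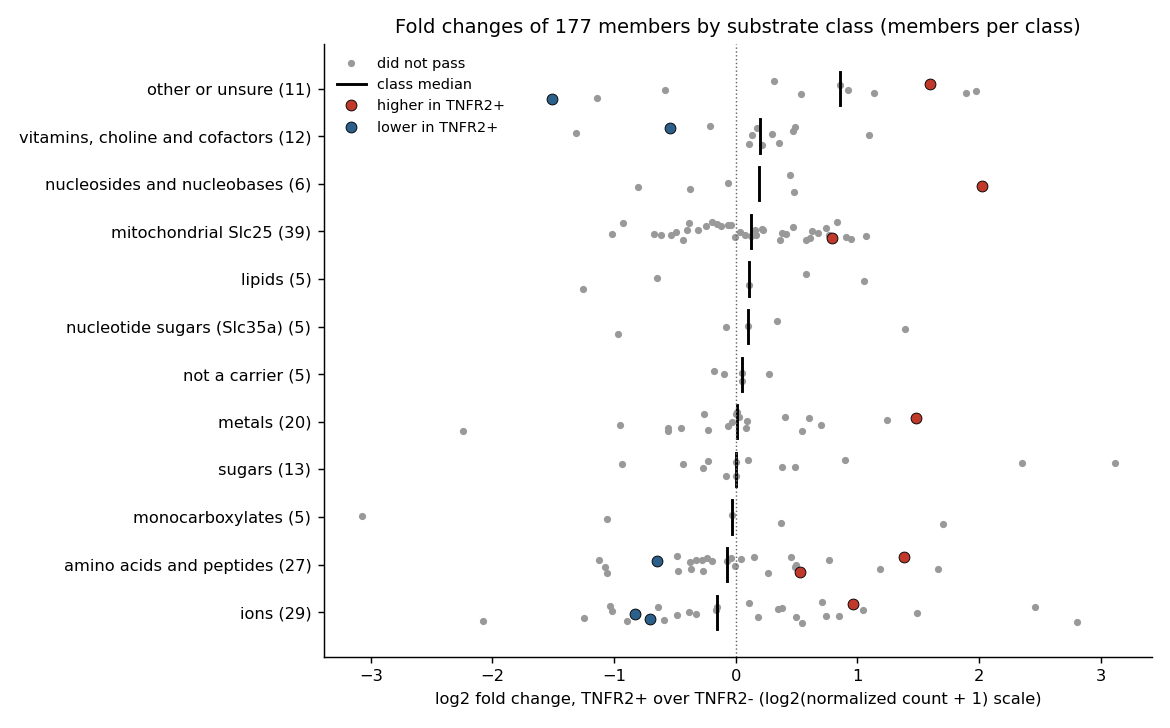
Each point is 1 of the 177 members, placed by its log2 fold change (TNFR2+ over TNFR2- Tregs, horizontal axis) in its substrate class (vertical axis, number of members in brackets), with black bars for class medians. Red points (7, higher) and blue points (5, lower) passed the adjusted p threshold and lay in 7 classes, and every class has points on both sides of 0.

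By substrate, the calls were spread thinly. Amino acid and peptide carriers had 2 higher and 1 lower of 27, ion carriers 1 and 2 of 29, mitochondrial Slc25 carriers 1 and 0 of 39, metal carriers 1 and 0 of 20, nucleoside and nucleobase carriers 1 and 0 of 6, and carriers of vitamins, choline and cofactors 0 and 1 of 12. A mixed class of other or unsure substrates had 1 and 1 of 11, with the highest class median, 0.86. No member passed by limma among 13 sugar, 5 monocarboxylate, 5 lipid and 5 nucleotide sugar carriers, of which 3, 2, 0 and 2 had an unadjusted p under 0.05. Nor did any of the 5 genes that are not carriers, with 1 unadjusted (Slc9a3r1, a scaffold protein, log2 difference 0.27, limma adjusted p = 0.164). Class medians otherwise ran from -0.16 for ions to 0.20 for vitamins, choline and cofactors.

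**Figure D2:**
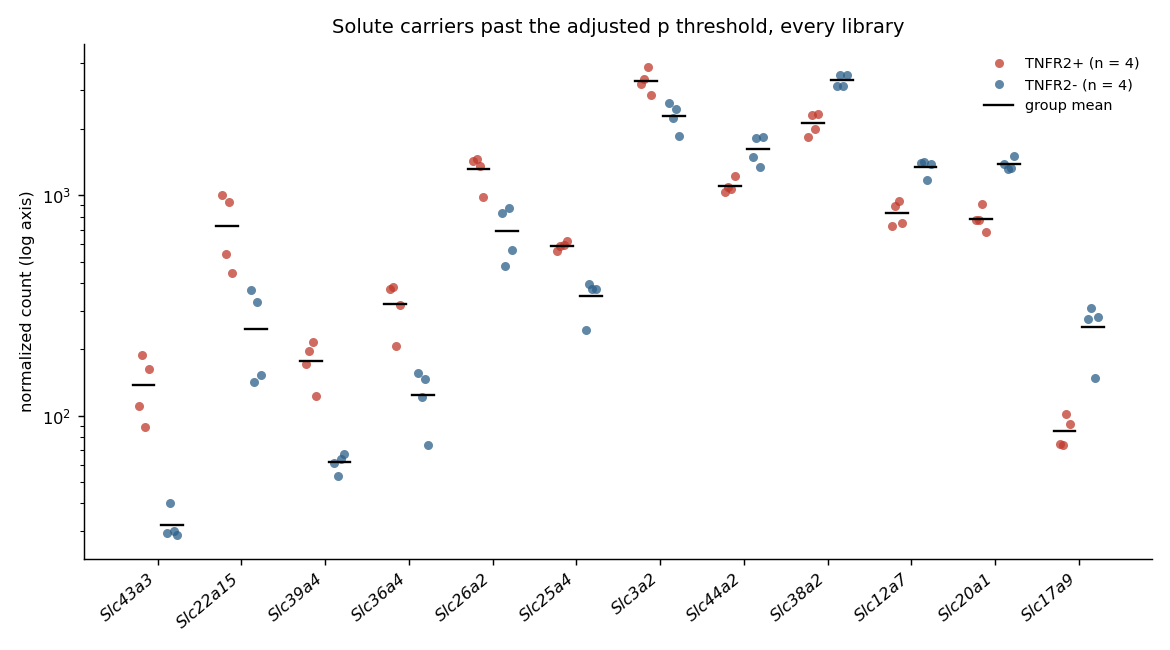
Normalized counts on a log axis for the 12 members past the threshold, with 1 point per library (red, TNFR2+; blue, TNFR2-; n = 4 each) and a black bar at each group mean. The colours do not overlap in any of the 12 genes, from Slc43a3 (on average 138 in TNFR2+ against 31.97 in TNFR2-) to Slc17a9 (85.5 against 252).

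Amino acid carriers moved in both directions. Slc3a2 and Slc36a4 were higher and Slc38a2 was lower in TNFR2+ Tregs, whereas Slc7a5, the light chain that pairs with Slc3a2, did not pass. Slc3a2 (chr19:8706882-8723369) encodes the CD98 heavy chain, which carries several amino acid exchangers to the cell surface. Its values were 3216, 3360.2, 3813 and 2849.9 in the TNFR2+ libraries and 2623, 2247, 2461 and 1864 in the TNFR2- libraries, replicates 1 to 4 in order. All TNFR2+ values lay above all TNFR2- values, by 1.44-fold (log2 fold change 0.53 ± 0.13, limma adjusted p = 0.029). Per length it was the most abundant of its class over all 8 libraries (lengths are those of the principal transcript). It stood at 1819.6 normalized counts per kilobase in TNFR2+ and 1264 in TNFR2- Tregs. Slc38a6, which did not pass, was lower in TNFR2+ (1294) and higher in TNFR2- Tregs (1568) than Slc3a2. The Slc3a2 call was lost without TNFR2+ replicate 1, 2 or 3 or TNFR2- replicate 2 or 4 (limma adjusted p between 0.0651 and 0.0946).

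Slc36a4 (chr9:15709738-15743361), a proton-independent carrier of proline and tryptophan, read 378, 385, 208 and 318 in the TNFR2+ libraries and 156, 121, 147 and 73.9 in the TNFR2- libraries. The lowest TNFR2+ library was still above the highest TNFR2- one, and the difference was 2.60-fold (log2 fold change 1.38 ± 0.29, limma adjusted p = 0.0114). Slc38a2 (chr15:96687392-96699730), which encodes SNAT2, a sodium-coupled carrier of small neutral amino acids such as alanine and glutamine, read 1844, 2316, 2009.9 and 2342 in the TNFR2+ libraries and 3138, 3509, 3147 and 3514 in the TNFR2- libraries. It was 1.57-fold lower in TNFR2+ Tregs (log2 fold change -0.65 ± 0.12, limma adjusted p = 0.00442), and the call held without each library in turn but not without the intensity trend (limma adjusted p = 0.0601). Its relative Slc38a1, which serves the same kind of substrate, ranged over 1512 to 1603 in TNFR2+ and 1116 to 1679.7 in TNFR2- Tregs and did not pass (log2 fold change 0.26 ± 0.14, limma adjusted p = 0.302, 95% interval -0.05 to 0.57). The log2 ratio of Slc38a1 to Slc38a2 within each library was -0.43 ± 0.19 in TNFR2+ and -1.34 ± 0.36 in TNFR2- Tregs (mean ± SD), without overlap.

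The remaining amino acid carriers named did not pass. Slc7a5 (LAT1) ranged over 419.9 to 664 in TNFR2+ and 545 to 608 in TNFR2- Tregs, with TNFR2+ replicate 3 far above the other 3 TNFR2+ libraries (log2 fold change -0.28 ± 0.18, limma adjusted p = 0.398, interval -0.66 to 0.11). The log2 ratio of Slc3a2 to Slc7a5 was 2.79 ± 0.21 in TNFR2+ and 1.98 ± 0.19 in TNFR2- Tregs, and the subsets did not overlap in it. Slc1a5 (ASCT2), a glutamine carrier, ranged over 1017 to 1499.6 in TNFR2+ and 766 to 976 in TNFR2- Tregs, without overlap, but missed the threshold (log2 fold change 0.48 ± 0.15, limma adjusted p = 0.0713). Slc7a6 and Slc7a11, the latter the cystine importer, stood at log2 differences of -0.07 (limma, adjusted p = 0.9) and -0.20 (limma, adjusted p = 0.78). Slc7a10, an exchanger of small neutral amino acids, and Slc38a7, a lysosomal glutamine exporter, also had no overlap without passing. Their log2 differences were 1.67 (limma, adjusted p = 0.0741) and -1.07 (limma, adjusted p = 0.186), in that order, and Slc7a10 passed without TNFR2- replicate 3 (limma adjusted p = 0.0383). Of the 24 amino acid and peptide carriers that did not pass, 11 had intervals within 1 log2 unit of 0, and they ranged from -1.13 for Slc43a1 to that of Slc7a10.

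Glucose carriers showed no called difference. Slc2a1 (GLUT1) ranged over 486 to 712 in TNFR2+ and 521 to 826 in TNFR2- Tregs, and Slc2a3 (GLUT3), its high-affinity relative, over 486 to 737 in TNFR2+ and 666 to 1088 in TNFR2- Tregs. Both had lower means in TNFR2+ Tregs, with overlapping libraries (log2 fold change -0.27 ± 0.19, limma adjusted p = 0.427, interval -0.68 to 0.13, for Slc2a1, and log2 fold change -0.44 ± 0.19, limma adjusted p = 0.178, interval -0.84 to -0.04, for Slc2a3). For Slc2a1 the interval thus excludes a 2-fold difference in either direction. Slc2a6, of the same family, did not pass either, although without TNFR2- replicate 3 it did (log2 difference 3.16, limma adjusted p = 0.0433). Slc50a1 had the highest level per length of the 13 sugar carriers (286 normalized counts per kilobase in TNFR2+ and 288 in TNFR2- Tregs), and its log2 difference between subsets was 0.00 (limma, adjusted p = 0.992). The largest fold change of any member was that of Slc37a2, a sugar phosphate exchanger of the endoplasmic reticulum, which read 67.6, 42.7, 34.7 and 49.6 in the TNFR2+ libraries and 30.6, 0, 29.4 and 0 in the TNFR2- libraries. It was listed at 0 in 2 TNFR2- libraries and did not pass (limma adjusted p = 0.115), although without TNFR2- replicate 3 it did (limma adjusted p = 0.0472).

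Monocarboxylate carriers export lactate and import pyruvate or ketone bodies. Slc16a1 (MCT1) was at 344 ± 28.3 in TNFR2+ and 353 ± 49.3 in TNFR2- Tregs (mean ± SD; interval of the log2 difference -0.42 to 0.36). Slc16a3 (MCT4), the lactate exporter of glycolytic cells, read 237, 149.9, 71.7 and 98.8 in the TNFR2+ libraries and 29.3, 40.1, 17.9 and 97.4 in the TNFR2- libraries. Its TNFR2+ libraries were mostly higher, but TNFR2- replicate 4 overlapped them, and it missed the threshold (log2 fold change 1.71 ± 0.52, limma adjusted p = 0.0633). Without that library it passed, with a log2 difference of 2.15 (limma adjusted p = 0.0243). Slc16a5 had the lowest log2 difference of all members, -3.08 (limma, adjusted p = 0.138), on low counts of 0, 1.74, 0 and 8.97 in the TNFR2+ libraries and 3.10, 34.0, 12.6 and 69.7 in the TNFR2- libraries.

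Among nucleoside and nucleobase carriers Slc43a3 alone passed, with the largest rise of the 12. Slc43a3 (chr2:84936579-84958509) carries purine nucleobases such as adenine into the cell. It read 111, 189, 88.4 and 163 in the TNFR2+ libraries and 29.3, 39.9, 29.9 and 28.7 in the TNFR2- libraries, a difference of 4.07-fold (log2 fold change 2.02 ± 0.36, limma adjusted p = 0.00418) that held without each library in turn. Slc29a1 (ENT1), the equilibrative nucleoside carrier, ranged over 248 to 339.6 in TNFR2+ and 174 to 287 in TNFR2- Tregs and did not pass (log2 fold change 0.45 ± 0.22, limma adjusted p = 0.256). Slc28a2, a sodium-coupled carrier of purine nucleosides and the most abundant of the class per length (254 normalized counts per kilobase in TNFR2+ and 266 in TNFR2- Tregs), differed by -0.07 (limma, adjusted p = 0.83) on the log2 scale. Gm14085, a gene with a transcript at least 95% identical to it, is also in the table, so reads may be split between them and both values are uncertain. Slc43a2, an amino acid carrier of the same family as Slc43a3, did not pass (log2 difference -0.23, limma adjusted p = 0.521), and the log2 ratio of Slc43a2 to Slc43a3 was 2.40 ± 0.78 in TNFR2+ and 4.66 ± 0.47 in TNFR2- Tregs, without overlap.

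The mitochondrial family was the largest, and 1 of its 39 members passed. Slc25a4 encodes ANT1, the exchanger of ADP and ATP across the inner mitochondrial membrane, and Slc25a5 encodes its close relative ANT2. The coding starts of both are shown because the reads of such close relatives must be told apart for Slc25a4 to be called alone. These are the 111 coding bases of the first coding exon on GRCm38 from GENCODE, with the 25 bases at which the genes differ in capitals. Slc25a4 lies at chr8:46210812-46210922, minus strand, and Slc25a5 at chrX:36795731-36795841, plus strand, both written 5′ to 3′.
Slc25a4: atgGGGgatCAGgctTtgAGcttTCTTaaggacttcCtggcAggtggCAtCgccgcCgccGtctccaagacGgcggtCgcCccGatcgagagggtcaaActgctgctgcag
Slc25a5: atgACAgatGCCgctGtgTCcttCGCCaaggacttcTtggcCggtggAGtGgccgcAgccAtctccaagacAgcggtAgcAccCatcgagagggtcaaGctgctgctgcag
Over the whole coding sequence, 894 bases in each, they were 77.4% identical.

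Slc25a4 (chr8:46206797-46211284) read 561, 591, 595 and 619 in the TNFR2+ libraries and 245, 396, 376 and 375 in the TNFR2- libraries. Its TNFR2+ values lay close together and above every TNFR2- value, TNFR2- replicate 1 being the lowest, and the difference was 1.73-fold (log2 fold change 0.79 ± 0.19, limma adjusted p = 0.0199). The call was lost without TNFR2+ replicate 2, 3 or 4 (limma adjusted p between 0.0507 and 0.0593). Slc25a5 was the more abundant per length (909.5 normalized counts per kilobase in TNFR2+ and 794 in TNFR2- Tregs, against 307 and 181 for Slc25a4). Gm5529 and Gm5560 have transcripts at least 95% identical to that of Slc25a5 and were not analysed here, so its value is uncertain. Slc25a5 ranged over 1068 to 1229 in TNFR2+ and 811 to 1333 in TNFR2- Tregs and did not pass (log2 fold change 0.22 ± 0.16, limma adjusted p = 0.462). The log2 ratio of Slc25a4 to Slc25a5 within each library was -0.93 ± 0.10 in TNFR2+ and -1.50 ± 0.42 in TNFR2- Tregs, without overlap.

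Slc25a3, the mitochondrial phosphate carrier, had the highest level per length of all Slc25 members (2342 normalized counts per kilobase in TNFR2+ and 1811 in TNFR2- Tregs). It read 3764, 3728, 3974 and 3636 in the TNFR2+ libraries and 3246, 2644, 3133 and 2655 in the TNFR2- libraries, without overlap, and just missed the threshold (log2 fold change 0.38 ± 0.11, limma adjusted p = 0.0527), which it passed without TNFR2- replicate 3 (limma adjusted p = 0.0439). Slc25a1, the citrate carrier, and Slc25a20, the carnitine and acylcarnitine carrier, differed by 0.22 (limma, adjusted p = 0.707) and -0.06 (limma, adjusted p = 0.862) on the log2 scale. Across the family 22 members were above 0 and 17 below, and 16 of the 38 that did not pass had intervals within 1 log2 unit of 0.

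Ion carriers had 3 calls, with a phosphate and a potassium-chloride carrier lower and a sulfate carrier higher. Slc20a1 (chr2:129198764-129211616) encodes PiT-1, a sodium-coupled importer of inorganic phosphate. It read 771, 772, 913 and 685 in the TNFR2+ libraries and 1396, 1319, 1328 and 1510.1 in the TNFR2- libraries, and was 1.77-fold lower in TNFR2+ Tregs (log2 fold change -0.83 ± 0.14, limma adjusted p = 0.00246). Slc12a7 (chr13:73733094-73816754) encodes KCC4, which exports potassium and chloride together and takes part in regulating cell volume. It read 727, 898, 947 and 749 in the TNFR2+ libraries and 1398, 1419, 1180.3 and 1386 in the TNFR2- libraries, 1.63-fold lower (log2 fold change -0.70 ± 0.14, limma adjusted p = 0.00817). Both calls held without each library in turn, and that of Slc12a7 was lost without the intensity trend (limma adjusted p = 0.0576). The exons of Slc20a1 overlap those of 9830144P21Rik and Gm4430 on the opposite strand. The kit keeps strand, but the strand setting of the counting is not given in the sources used here.

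Slc20a2 (PiT-2), the relative of Slc20a1, did not pass, with a log2 difference of 0.71 (limma, adjusted p = 0.387). Slc26a2, a sulfate and chloride exchanger that supplies sulfate for the sulfation of proteoglycans, read 1439.5, 1467, 1363 and 979.8 in the TNFR2+ libraries and 829, 476, 874 and 567 in the TNFR2- libraries. It was 1.95-fold higher (log2 fold change 0.96 ± 0.21, limma adjusted p = 0.0135), and lost its call without TNFR2+ replicate 2 (limma adjusted p = 0.0509). Slc12a2 (NKCC1), which imports sodium, potassium and chloride, ranged over 377 to 615 in TNFR2+ and 158 to 516 in TNFR2- Tregs and did not pass (log2 fold change 0.74 ± 0.30, limma adjusted p = 0.158). Without TNFR2- replicate 3 its log2 difference was 1.03 (limma adjusted p = 0.0264). Slc9a5 and Slc41a3 had no overlap but did not pass, at log2 differences of 2.81 (limma, adjusted p = 0.0658) and 1.49 (limma, adjusted p = 0.0843). Slc9a5 passed without TNFR2- replicate 3 or 4 (limma adjusted p of 0.0335 and 0.0427).

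The promoters of the lower pair, Slc20a1 and Slc12a7, are shown because each holds the letters CACGTG, the E-box bound by basic helix-loop-helix factors, within 250 bases before the RefSeq start. The 240 bases farthest from the start are printed 5′ to 3′ on GRCm38.p6, chr2:129198523-129198762 for Slc20a1 and chr13:73763447-73763686 for Slc12a7, both plus strand, with the motif in capitals. In the GENCODE annotation the Slc20a1 stretch lies before the gene and within an exon of Gm4430 on the other strand, and the Slc12a7 stretch lies in an intron of a Slc12a7 transcript that starts farther upstream.
Slc20a1: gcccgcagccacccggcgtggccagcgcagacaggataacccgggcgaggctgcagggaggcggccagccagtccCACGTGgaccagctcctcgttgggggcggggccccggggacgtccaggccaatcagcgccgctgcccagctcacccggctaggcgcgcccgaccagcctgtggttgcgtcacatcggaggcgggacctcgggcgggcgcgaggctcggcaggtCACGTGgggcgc
Slc12a7: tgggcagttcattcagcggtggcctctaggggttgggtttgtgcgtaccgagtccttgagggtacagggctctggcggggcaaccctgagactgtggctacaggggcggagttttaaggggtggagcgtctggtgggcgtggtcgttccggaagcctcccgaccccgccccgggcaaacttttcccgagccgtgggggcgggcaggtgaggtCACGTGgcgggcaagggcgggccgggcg
The motif began 175 and 22 bases before the start in Slc20a1 and 38 bases before it in Slc12a7. CACGTG reads the same on both strands and stood in 6.02% of the 32851 promoters of this length, or in 6.86% of 27025 genes. Of the 131 members with a promoter entry 23 held it (17.6%), and their upstream bases had a median GC content of 61.9%, against 52.4% over all genes, expressed in Tregs or not. Of the 8 called members with an entry, those 2 lower members alone held it. No other member of the 23 passed, and the median log2 fold change of the 23 was -0.03. TGANTCA, the AP-1 element, stood in 6.75% of promoters and TGATGNAA (TTNCATCA on the other strand), the C/EBP-ATF element, in 3.45%, and neither was found in the 8 called members with an entry. A match is a run of letters and not a binding site.

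Metal carriers had a single call. Slc39a4 (chr15:76612383-76617384) encodes ZIP4, a zinc importer. It read 172, 196, 215 and 123 in the TNFR2+ libraries and 61.1, 53.2, 63.8 and 67.1 in the TNFR2- libraries. The TNFR2- values were tightly grouped, and the difference of 2.80-fold (log2 fold change 1.49 ± 0.29, limma adjusted p = 0.00659) held without each library in turn. Slc39a1 (ZIP1), another zinc importer, ranged over 139 to 201 in TNFR2+ and 76.1 to 164 in TNFR2- Tregs and did not pass (log2 fold change 0.70 ± 0.29, limma adjusted p = 0.163). Slc30a1 (ZnT1), the zinc exporter, was at 427 ± 86.2 in TNFR2+ and 423 ± 81.6 in TNFR2- Tregs (mean ± SD), with an interval of -0.43 to 0.45 on the log2 scale. Slc39a7, the most abundant metal carrier per length (190.1 normalized counts per kilobase in TNFR2+ and 194 in TNFR2- Tregs), differed by 0.00 (limma, adjusted p = 0.996) on the log2 scale, but Gm20427 shares its transcript sequence and is in the table, so its value is uncertain. Slc11a1, the phagosomal metal carrier of macrophages, had a mean of 2.56 and was not tested.

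Vitamin, choline and cofactor carriers also had a single call. Slc44a2 (chr9:21320698-21355028), a choline carrier-like protein and the most abundant of this class per length, read 1039, 1086, 1073 and 1228 in the TNFR2+ libraries and 1494, 1815, 1349 and 1843 in the TNFR2- libraries. It was 1.46-fold lower in TNFR2+ Tregs (log2 fold change -0.54 ± 0.14, limma adjusted p = 0.0294). This call was lost without TNFR2+ replicate 1, 2 or 3 or TNFR2- replicate 2 or 4 (limma adjusted p between 0.0731 and 0.0916). Its relative Slc44a1 did not pass (log2 difference 0.49, limma adjusted p = 0.256), and the log2 ratio of Slc44a1 to Slc44a2 was -2.15 ± 0.43 in TNFR2+ and -3.18 ± 0.22 in TNFR2- Tregs, without overlap. Slc19a1, the reduced folate carrier, ranged over 89.6 to 287 in TNFR2+ and 56.3 to 108 in TNFR2- Tregs and did not pass (log2 fold change 1.10 ± 0.38, limma adjusted p = 0.0992).

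The mixed class held the largest fall and the second largest rise of the 12. Slc17a9 (chr2:180725263-180742280) encodes the vesicular nucleotide transporter, which loads ATP into secretory vesicles. It read 74.4, 73.7, 102 and 92.1 in the TNFR2+ libraries and 276, 307, 148 and 279.7 in the TNFR2- libraries, and was 2.85-fold lower in TNFR2+ Tregs (log2 fold change -1.51 ± 0.29, limma adjusted p = 0.00605). All TNFR2+ values were below the lowest TNFR2- value, replicate 3, and the call held without each library in turn. Slc22a15 (chr3:101855776-101924453), of the organic cation and zwitterion carriers, read 1006, 539.9, 929 and 442 in the TNFR2+ libraries and 371, 142, 327 and 153 in the TNFR2- libraries. Replicates 1 and 3 lay above 2 and 4 in both subsets, which did not overlap, and the difference was 3.02-fold (log2 fold change 1.59 ± 0.35, limma adjusted p = 0.0137). The call was lost without TNFR2+ replicate 1 or 3 (limma adjusted p of 0.0520 and 0.0545). Slc14a1, a urea carrier, differed by 0.32 (limma, adjusted p = 0.457) on the log2 scale. Per length it led the class only over all 8 libraries together (76.0 normalized counts per kilobase). Slc22a15 was higher in TNFR2+ Tregs (111.0, against 84.2 for Slc14a1), and Slc17a9 was higher in TNFR2- Tregs (111.0, against 67.8 for Slc14a1).

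Slc10a7 and Slc35a4 were placed by hand in the lipid and nucleotide sugar classes, and their substrates were not tested. Over all 8 libraries they had the highest level per length there. Slc10a7 stood at 48.4 normalized counts per kilobase in TNFR2+ and 44.5 in TNFR2- Tregs. Slc35a4 stood at 73.4 normalized counts per kilobase in TNFR2+ and 67.2 in TNFR2- Tregs. The lipid carrier Slc10a3 was above Slc10a7 in TNFR2+ Tregs (55.9) and below it in TNFR2- Tregs (32.9). Neither Slc10a7 nor Slc35a4 passed, at log2 differences of 0.11 (limma, adjusted p = 0.844) and 0.10 (limma, adjusted p = 0.877). Gm5866, whose transcript is at least 95% identical to that of Slc35a4, was not analysed here. Slc35a2, which carries UDP-galactose into the Golgi, had no overlap and did not pass (log2 difference 1.39, limma adjusted p = 0.195).

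**Figure D3:**
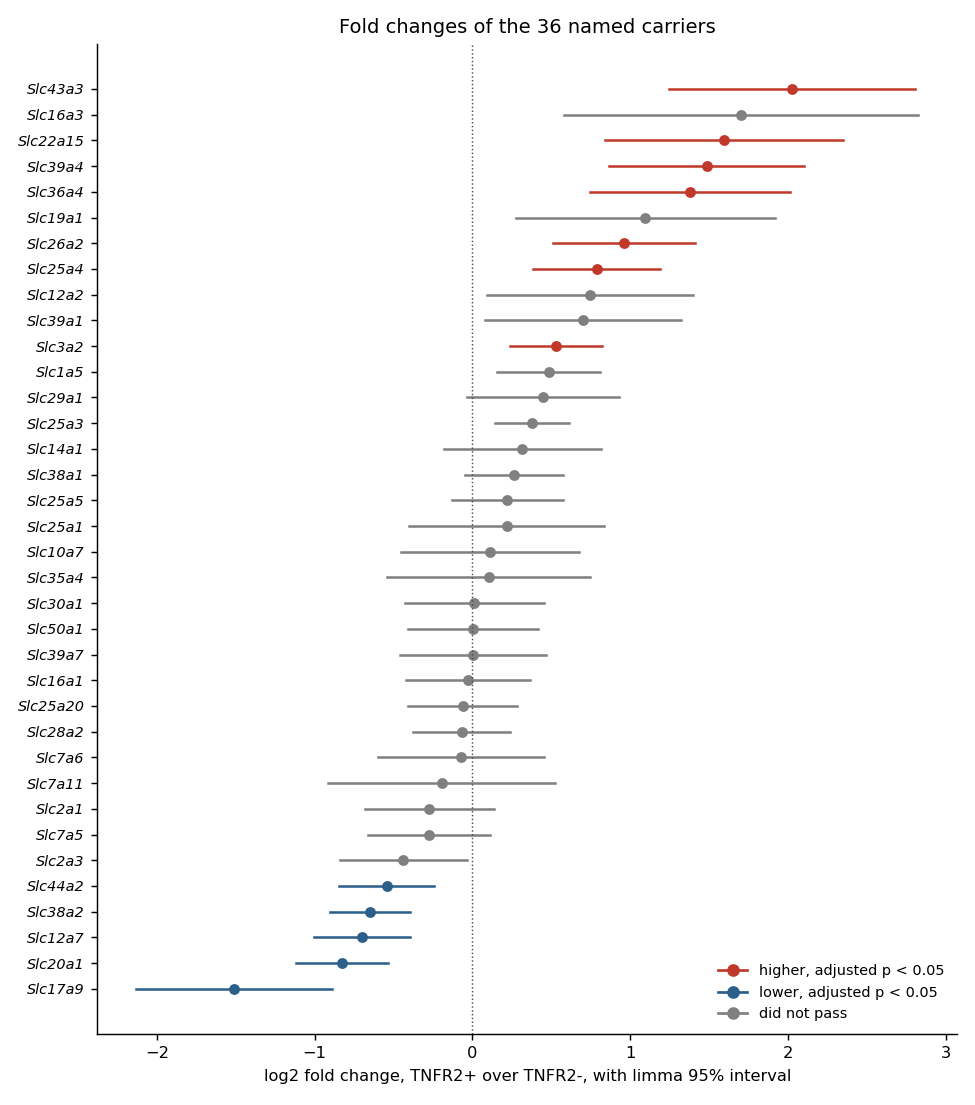
Log2 fold changes (TNFR2+ over TNFR2- Tregs, horizontal axis) with limma 95% intervals for 36 carriers named by rule, sorted by size. Red and blue mark the 12 past the threshold, and grey intervals include Slc2a1 (-0.68 to 0.13), Slc7a5 (-0.66 to 0.11) and Slc16a3 (0.58 to 2.83).

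Partners and regulators of the carriers were called in both directions. Of 38 tested partners and regulators, 3 were higher (Hif1a, Stk39 and Sesn3) and 4 lower (Srebf2, Nedd4l, Tsc22d3 and Txnip) in TNFR2+ Tregs, against 4.52% and 3.39% of all genes tested, and their median log2 fold change was -0.10. Txnip, an arrestin-like protein that takes GLUT1 off the cell surface, read 1612, 1548, 1777 and 1871 in the TNFR2+ libraries and 3640.2, 3769, 3636 and 5287 in the TNFR2- libraries and was lower (log2 fold change -1.25 ± 0.14, limma adjusted p = 0.000352). Hif1a, the hypoxia factor that drives glycolytic genes, was at 6419 ± 1269 in TNFR2+ and 4101 ± 907 in TNFR2- Tregs (mean ± SD; log2 fold change 0.65 ± 0.17, limma adjusted p = 0.0355). Stk39, the kinase SPAK, which phosphorylates cation-chloride carriers of the Slc12 family, was at 892 ± 41.3 in TNFR2+ and 615 ± 53.6 in TNFR2- Tregs (log2 fold change 0.54 ± 0.14, limma adjusted p = 0.0299).

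Sesn3, a sestrin of the amino acid sensing branch of mTORC1, was higher at 1082 ± 63.9 in TNFR2+ and 763 ± 91.4 in TNFR2- Tregs (log2 fold change 0.51 ± 0.14, limma adjusted p = 0.0394). Tsc22d3 (GILZ), a glucocorticoid-induced gene, was lower at 1028 ± 252 in TNFR2+ and 2017 ± 334 in TNFR2- Tregs (log2 fold change -0.99 ± 0.18, limma adjusted p = 0.00449). Srebf2, the regulator of sterol genes, was at 1302 ± 136 in TNFR2+ and 2137 ± 423 in TNFR2- Tregs (log2 fold change -0.70 ± 0.16, limma adjusted p = 0.015). Nedd4l, a ubiquitin ligase that removes ion channels and carriers from the membrane, was at 143 ± 44.7 in TNFR2+ and 333 ± 136 in TNFR2- Tregs (log2 fold change -1.16 ± 0.32, limma adjusted p = 0.0419). Hif1a and Nedd4l overlapped between the subsets and the other 5 did not. Txnip and Tsc22d3 passed without each library in turn. The other calls did not hold throughout. Srebf2 lost its call without TNFR2+ replicate 1 or TNFR2- replicate 2 (limma adjusted p of 0.0526 and 0.0543), and Stk39 lost it without TNFR2+ replicate 1, 2 or 3 or TNFR2- replicate 2 or 4 (limma adjusted p between 0.0609 and 0.0816). Hif1a and Nedd4l passed in 2 of these 8 fits, without TNFR2+ replicate 4 or TNFR2- replicate 3, and Sesn3 in 1, without TNFR2- replicate 2.

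Carriers outside the naming pattern had, against 7.91% of all genes tested, a single call among 43 tested. This was Slc35d1, lower in TNFR2+ Tregs, which carries UDP-glucuronic acid and UDP-N-acetylgalactosamine into the endoplasmic reticulum, and which read 397, 331, 376 and 297 in the TNFR2+ libraries and 718, 772, 827 and 843 in the TNFR2- libraries (log2 fold change -1.18 ± 0.16, limma adjusted p = 0.000836). It passed without each library in turn. None of the 13 tested ion pumps of the ATPase families passed by limma, although without adjustment 8 had a p under 0.05 (3 of them higher), against 23.0% of all genes tested, and their median log2 fold change was -0.34.

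**Figure D4:**
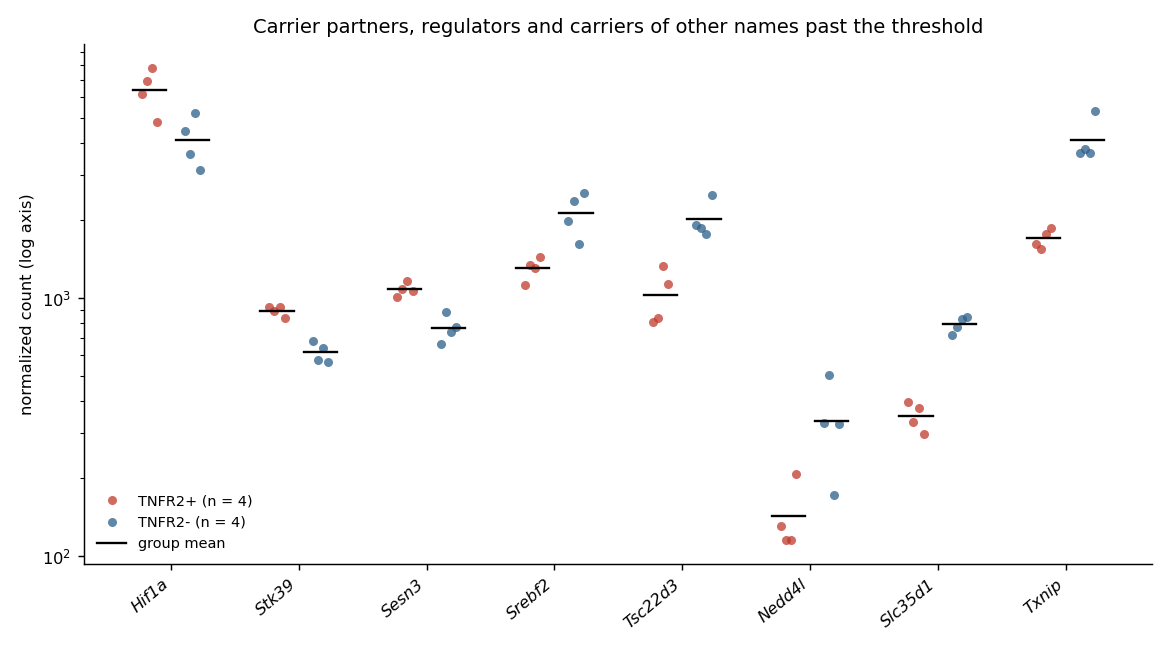
Normalized counts on a log axis for the 8 partners, regulators and other carriers past the threshold, with 1 point per library (red, TNFR2+; blue, TNFR2-; n = 4 each) and black bars at group means. Of the genes whose colours do not overlap, Txnip (on average 1702 in TNFR2+ against 4083 in TNFR2-) and Slc35d1 (350.4 against 790.1) differ most, while Hif1a and Nedd4l overlap.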

How the data were processed

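RNA of sorted TNFR2+ and TNFR2- splenic Tregs (4 libraries each) was sequenced with a stranded low-input total RNA kit. The authors checked reads with FastQC 0.11.8, trimmed them with Trim Galore, estimated transcript abundance with salmon 1.3.0 against Ensembl transcripts of GRCm38, and scaled the gene values with DESeq2 1.28 in R 4.0, per the labels and the study's methods. The deposited values are this normalized signal per gene, not on a log scale, with sums of 9.58e+06 to 1.15e+07 per library. How transcripts were summed to genes and any gene filter are not given in the sources used here. Low values of single-transcript genes lay near whole multiples of 1 step in 69.7% to 96.5% of cases, which put depth at about 9.10e+06 to 1.21e+07 reads, but whole reads could not be recovered for other genes, so no count model was fitted. All 8 columns were mapped by name.

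Symbols, coordinates and lengths came from GENCODE on GRCm38 (20008 of 20172 identifiers matched), and promoters from RefSeq. Values were taken as log2(normalized count + 1). Genes with a mean of at least 10 were tested with limma 3.58.1 in R 4.3.3 (moderated variances with an intensity trend, two-sided, Benjamini-Hochberg over all 13990 genes, threshold 0.05). Fold changes are on the log2(value + 1) scale, which understates changes of low genes, and ± after a log2 value is the standard error. The script was tested on simulated data. Levels per kilobase divide by the length of the principal transcript, and values of genes with transcripts at least 95% identical over at least 50% of their length (blastn 2.17.0) are given as uncertain.

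Substrate classes, partners and markers are hand-written lists. The members, classes and lists were chosen with earlier results of these data known, and the family pairs and carriers singled out for not overlapping or as extremes of a class or of all members (Slc37a2, Slc16a5, Slc43a1), Slc9a3r1 and Slc2a6 after their values were seen. Members named are called ones without overlap (up to 30), the member highest per length in each class, and a fixed set of well-known carriers, of which Slc4a1 was not analysed here and 1 other is not reported here. Rank per length within a class used the mean over all 8 libraries. Slc38a6 and Slc10a3 were named after their values were seen. Genes of the other lists were named where they passed, up to 8 a list. Alternatives were pseudocounts of 0.5 and 5, no filter, a mean of at least 50, no intensity trend, equal library sums, trimmed mean scaling, array weights, a replicate block, and leaving out each library.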

Additional observations from a re-analysis of the deposited data

Results flagged for a closer look

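In 7 groups of 4 libraries among the 36 named carriers, 1 library lay so far from the other 3 that the gap exceeded Dixon's critical share of the group's range. Chance flags about 1 in 20 groups, and 2 groups were looked at for each carrier. TNFR2- replicate 2 was high for Slc43a3 (39.9 normalized counts, others 28.7 to 29.9) and low for Slc25a20 (495, others 647 to 658). TNFR2- replicate 3 was low for Slc12a7 (1180.4, others 1386 to 1419) and high for Slc28a2 (1242, others 951 to 999.7). TNFR2- replicate 1 was low for Slc25a4 (245, others 375 to 396). In the TNFR2+ subset, replicate 1 was high for Slc50a1 (325, others 279 to 285) and replicate 3 was high for Slc7a5 (664, others 419.9 to 429.5). The calls of Slc43a3, Slc25a4 and Slc12a7 held without the library in question.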

How the results depend on the processing

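Main counts were 7 members higher and 5 lower, in 7 substrate classes, and 8 related genes. Without the intensity trend, 2 members were higher and 2 lower (Slc43a3, Slc39a4, Slc17a9 and Slc20a1), so that 4 of the 12 stayed called, in 4 classes, with 2 related genes called and 3.32% of all genes called. Equal library sums gave 13 higher and 4 lower, and array weights 11 higher and 5 lower. No alternative reversed any of the 12 calls, and Slc3a2 and Slc44a2 lost theirs most often. Leaving out each library in turn gave 4 to 16 members higher, 4 to 6 lower, 5 to 8 classes, 8 to 12 of the 12 kept and 3 to 12 related genes. Of all genes, 4.59% to 9.30% were called in these fits. The fewest members higher (4) came without TNFR2+ replicate 2 or 3, the most without TNFR2- replicate 3, and the fewest related genes (3) without TNFR2+ replicate 1. The cause was not tested.

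Replicate numbers are shared between the subsets, but the deviations of same-numbered libraries correlated by -0.04 to 0.0005, which shows no pairing across genes, although the libraries of Slc15a2 and Slc22a15 ran alike by number in both subsets. With the replicate block 10 members were higher and 6 lower, and 8.46% of all genes were called. All 12 of the main calls were kept there, 9 related genes were called, and Slc7a10 passed (adjusted p = 0.0236, limma). Slc25a3 passed there (adjusted p = 0.0488, limma), with a mean of at least 50 (0.0418), with equal sums (0.0209) and with array weights (0.0460), while Slc1a5 passed with equal sums (0.0261) and Slc16a3 with equal sums (0.0450) and array weights (0.0427).

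Small log2 differences that never passed changed sign. Equal sums gave 0.10 for Slc16a1, 0.063 for Slc28a2, 0.057 for Slc7a6 and 0.068 for Slc25a20. Trimmed mean scaling gave -0.0091 for Slc39a7 and -0.0070 for Slc50a1, and array weights gave -0.012 for Slc39a7. Leaving out libraries gave -0.015 to 0.25 for Slc10a7, -0.13 to 0.16 for Slc39a7, -0.13 to 0.030 for Slc16a1, -0.12 to 0.021 for Slc28a2, -0.055 to 0.35 for Slc35a4, -0.084 to 0.091 for Slc50a1, -0.19 to 0.11 for Slc7a6 and -0.087 to 0.13 for Slc30a1. With 4 libraries a group, intervals of 101 of the 165 members that did not pass reached a 2-fold difference.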

Other observations

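Slc15a2, a carrier of di- and tripeptides, was listed at 0 in replicate 1 of both subsets, whereas the other 6 libraries held 103 to 749 normalized counts. It was the 1 gene of 20008 with a symbol that had at most 1 normalized count in a TNFR2+ and a TNFR2- library and at least 30 in the other 6, over all 16 such library pairs. This search was made after the values of Slc15a2 were seen. The cause was not tested, and the fold change between the subsets was -0.32 ± 2.03 on the log2 scale.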
